A study of Mus musculus with 6 samples.

Results

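A set of 5 genes that mark macrophages of the serous cavities or of fixed tissue niches, Saa3, Cd5l, Marco, Timd4 and Prg4, were followed through single-nucleus RNA sequencing of mouse white adipose tissue. They are 5 of the 56980 genes listed, each found under its symbol once. They were chosen by their levels in the macrophage nuclei of these same libraries, so the levels of the 5 genes are given below as a description and not as a test. There were 6 libraries from female C57BL/6J mice, 2 in each of 3 groups. Young SAT stands for inguinal subcutaneous fat of mice aged 2 months and old SAT for the same depot at 24 months, while VAT is gonadal visceral fat of mice aged 24 months. The labels name no transgene and no treatment, and they call every library adipocytes, although nuclei of many classes were present. The older age is that of the labels, and the design text gives a slightly higher one.

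Macrophages of the peritoneal cavity fall into large cells, which are long-lived and depend on the transcription factor GATA6, and small cells that arise from monocytes. Gonadal fat hangs in that cavity and is covered by mesothelium, whereas inguinal fat lies under the skin and is crossed by lymphatic vessels and lymph nodes. Saa3 encodes a serum amyloid A protein made outside the liver in inflammation. Cd5l encodes a secreted scavenger-type protein of tissue macrophages, and Marco encodes a scavenger receptor that binds bacteria and particles. Timd4 encodes a receptor for phosphatidylserine on dying cells. Prg4 encodes lubricin, a glycoprotein that coats joint and serosal surfaces.

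On GRCm39 with GENCODE release M39, the 5 protein-coding genes lie apart from each other except for a shared chromosome. Saa3 (ENSMUSG00000040026) spans chr7:46361422-46365576 on the minus strand. Cd5l (ENSMUSG00000015854) spans chr3:87265182-87278380 on the plus strand, and Timd4 (ENSMUSG00000055546) spans chr11:46701620-46735177 on the plus strand. Marco (ENSMUSG00000026390) spans chr1:120402267-120432753 and Prg4 (ENSMUSG00000006014) spans chr1:150325163-150342009, both on the minus strand. The gene lengths range from 4155 bases for Saa3 to 33558 bases for Timd4, and UMIs (unique molecular identifiers, which mark single captured transcripts) were not divided by length. Levels were therefore compared between libraries and nuclei for the same gene, and not between genes.

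The 250 bases before the start site are shown for the genes found in the RefSeq promoter table (GRCm38.p6), because their macrophage levels differed in pattern between libraries. Prg4 is the other member. Each stretch matched GRCm39 exactly once, at chr7:46365101-46365350 for Saa3, chr3:87264938-87265187 for Cd5l, chr1:120432754-120433003 for Marco and chr11:46701376-46701625 for Timd4. They are printed 5′ to 3′ on the strand of the gene, and capitals mark the motif letters found.
Saa3: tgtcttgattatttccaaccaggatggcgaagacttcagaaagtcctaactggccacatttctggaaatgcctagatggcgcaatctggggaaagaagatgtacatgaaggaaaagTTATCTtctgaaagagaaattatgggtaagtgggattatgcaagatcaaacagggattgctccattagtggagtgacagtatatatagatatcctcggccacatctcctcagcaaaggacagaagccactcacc
Cd5l: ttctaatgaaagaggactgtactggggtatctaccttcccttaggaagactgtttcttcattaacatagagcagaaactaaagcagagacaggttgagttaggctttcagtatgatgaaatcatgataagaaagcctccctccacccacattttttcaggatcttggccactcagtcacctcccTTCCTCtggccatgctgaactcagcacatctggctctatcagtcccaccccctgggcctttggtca
Marco: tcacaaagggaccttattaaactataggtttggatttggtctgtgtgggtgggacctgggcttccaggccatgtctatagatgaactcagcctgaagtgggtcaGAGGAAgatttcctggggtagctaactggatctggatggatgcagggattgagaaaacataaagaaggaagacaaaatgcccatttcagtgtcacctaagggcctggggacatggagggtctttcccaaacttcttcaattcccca
Timd4: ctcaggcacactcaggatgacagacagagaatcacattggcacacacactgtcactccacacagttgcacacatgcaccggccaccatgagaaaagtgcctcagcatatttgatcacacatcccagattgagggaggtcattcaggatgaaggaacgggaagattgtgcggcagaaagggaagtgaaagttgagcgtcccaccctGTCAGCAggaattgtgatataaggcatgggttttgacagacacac
The Saa3 stretch lies inside the GENCODE gene, with all 250 bases in exons of longer transcripts, since the RefSeq start is 476 bases downstream of the GENCODE start. The Cd5l and Timd4 stretches overlap the first GENCODE exon by 6 bases, and the Marco stretch lies upstream of its gene. The motifs searched on both strands were the GATA motif AGATAA, the Maf half-site TGCTGAC, the PU.1 motif GAGGAA, the C/EBP half-site TTGCAA and the TATA box TATAAA. Saa3 held the GATA motif on the opposite strand, beginning 134 bases before the start, and Timd4 held the Maf half-site on the opposite strand at 45 bases. Marco held the PU.1 motif at 146 bases, and Cd5l held it on the opposite strand at 66 bases. Of all 32851 promoter windows of this length, 9.99% held the GATA motif, 3.81% the Maf half-site and 23.3% the PU.1 motif. The C/EBP half-site and the TATA box, held by 5.34% and 12.4% of windows, were in none of the stretches printed. Each stretch held 1 motif, so none overlapped another.

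After filtering, 27074 nuclei of 50859 barcodes remained, with 2490 to 5776 nuclei and a median of 1380 to 1878 UMIs per nucleus in a library. At most 0.482% of barcodes were shared by a pair of libraries. Macrophage nuclei numbered 1036, namely 152 and 229 in SAT at 2 months, 60 and 222 in SAT at 24 months, and 210 and 163 in VAT at 24 months. All 13 macrophage markers were over 2-fold higher in these nuclei than in the rest of their library in each of the 6 libraries. Among the 1036 were 23 nuclei, 2 to 10 in a library, of a sub-cluster led by T cell genes such as Skap1, Trbc2 and Il7r, which held 1 Prg4 UMI and none of the other 4 genes. Without them Saa3 in VAT macrophages was at 1602 and 486 CPM and Timd4 in young SAT at 1354 and 852 CPM. Mesothelial nuclei, with all 9 of their markers over 2-fold higher, were found in VAT only, at 235 and 1804. In SAT, 490 nuclei fell into clusters named mesothelial elsewhere, but they held 0 UMIs of the mesothelial genes Msln, Upk3b and Upk1b and were not counted as mesothelial. VAT replicate 2 stood apart: the summed level of 15 ovarian and oviduct genes was 3359 CPM (UMIs of a gene per 1000000 UMIs of the same nuclei) there, against 59.0 CPM in VAT replicate 1 and 162 to 268 CPM in the SAT libraries, with 14 or 15 of the genes detected in each library. The part of that tissue in the values of VAT replicate 2 was not tested.

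Saa3 and Prg4 were found in macrophages of visceral fat and gave at most 1 UMI in those of any subcutaneous library. Saa3 reached 548 and 123 UMIs in VAT macrophages, which is 1590 and 472 CPM, and 0 UMIs in each of the 4 SAT libraries. The group mean in VAT was 1031 ± 790 CPM (SD, n = 2). Every VAT library lay above every SAT library, and VAT replicate 1 lay well above replicate 2. Against a floor of 3 UMIs over both SAT libraries at 24 months, the Saa3 level in VAT macrophages was at least 192-fold higher. The bound was 39.7-fold without SAT 24 months replicate 2 and 81.9-fold without VAT replicate 1. Prg4 gave 167 and 30 UMIs in VAT macrophages, or 484 and 115 CPM, a mean of 299.7 ± 261 CPM. In SAT it gave 0 and 1 UMI at 2 months and 0 and 1 UMI at 24 months. With 1 UMI in the reference group, under the floor of 3 UMIs, the ratio of VAT to SAT at 24 months was 169. Its 95% counting interval was 30.1 to 6725. The replicates of VAT did not overlap those of SAT for Prg4 either, and VAT replicate 1 was again the higher library.

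Cd5l showed a different order, with macrophages of young SAT and of VAT both positive and those of old SAT empty. It gave 29 and 76 UMIs in SAT at 2 months (102 and 177 CPM), 0 and 0 in SAT at 24 months, and 69 and 67 UMIs in VAT at 24 months (200 and 257 CPM). The means were 139 ± 53.3 CPM in young SAT and 229 ± 40.1 CPM in VAT. Both VAT libraries lay above both young SAT libraries, but the counting intervals of the nearest 2 overlapped (139.6 to 222 CPM in young SAT and 156 to 253 CPM in VAT). The 0 UMIs in old SAT stand for 60 and 222 nuclei and allow up to 27.9 and 7.26 CPM at 3 UMIs. Against the floor of 3 UMIs over both old SAT libraries, Cd5l was at least 25.5-fold lower than in young SAT and at least 39.0-fold lower than in VAT. Without SAT 24 months replicate 2 these bounds were 5.26-fold and 8.04-fold. With looser filters (300 genes and 500 UMIs) the old SAT macrophages held 1 and 8 Cd5l UMIs and 1 and 0 Saa3 UMIs. In that setting, here and below, macrophages were also classed by marker scores in place of clusters, so filter and class rule changed together.

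Timd4 was highest in macrophages of young SAT, while the 2 Marco libraries of each group lay far apart. Timd4 gave 378 and 352 UMIs at 2 months (1326 and 820 CPM), 50 and 56 in SAT at 24 months (466 and 135 CPM), and 44 and 19 in VAT (128 and 72.9 CPM). Each young library lay above each older one, and the nearest SAT and VAT libraries at 24 months had overlapping counting intervals. The means were 1073 ± 357, 301 ± 234 and 100 ± 38.7 CPM (SD, n = 2). Marco gave 216 and 118 UMIs in young SAT (758 and 275 CPM), 26 and 1 in old SAT (242 and 2.42 CPM), and 138 and 2 in VAT (400 and 7.67 CPM). VAT replicate 1 lay above young SAT replicate 2 for Marco, and their counting intervals did not overlap (336 to 473 and 228 to 329 CPM). The Marco groups at 24 months overlapped, since each held a library that was high and a library that was near the floor, and in VAT the high library was the same one that was high for Saa3 and Prg4.

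**Figure D1:**
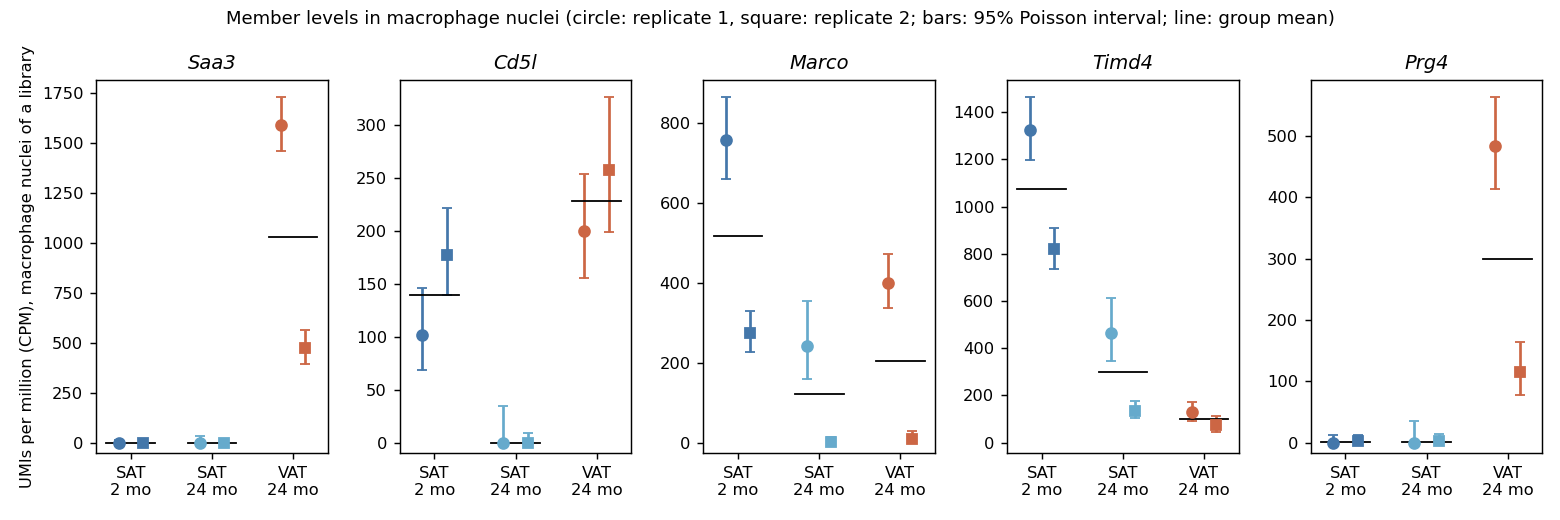
Level of each gene in macrophage nuclei, in CPM on a linear axis, for the 2 libraries of each group (circle, replicate 1; square, replicate 2), with 95% Poisson intervals of the UMI count and a line at the group mean. Saa3 and Prg4 lie above 0 in VAT, Cd5l is at 0 in SAT at 24 months, and Timd4 is highest in SAT at 2 months.

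Shares of macrophage nuclei with at least 1 UMI were compared after each nucleus had been thinned to 1000 UMIs. The Timd4 share was 31.6% and 30.1% in young SAT, 15% and 10.4% in old SAT, and 12.4% and 4.91% in VAT. Before thinning the young shares were 38.2% and 34.9%. The Cd5l share was 7.24% and 6.99% in young SAT and 5.24% and 9.20% in VAT, and the Saa3 share in VAT was 7.62% and 4.29%. Endothelial nuclei, which are not known for Saa3, gave a thinned share of 0% and 0.461% in VAT at median depths of 1507 and 1334 UMIs, against 1382.5 and 1345 in macrophages. For Timd4 the endothelial shares were 3.45% and 2.27% in young SAT and 0% to 0.490% at 24 months. The young shares came from 2 of 58 and 1 of 44 nuclei. Over all nuclei outside macrophages the Timd4 share was 1.13% and 1.05% in young SAT. With 2 libraries against 2, an exact permutation test could not have gone under p = 0.333, and none is given for the 5 genes.

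In a negative binomial fit across all genes (edgeR quasi-likelihood test, Benjamini-Hochberg adjustment over 7526 genes), Cd5l was among the 8 genes, 0.106% of those tested, called between the ages in SAT macrophages. Saa3, Cd5l and Prg4 were among the 5 genes, 0.0664% of those tested, called between VAT and SAT at 24 months. These calls follow from how the genes were chosen, and nothing is read from their number. An unadjusted p under 0.05 was found for 1031 and 406 genes. All 5 genes passed the filter on low counts, Saa3 and Prg4 through VAT alone. The other genes called between the ages were Cd209a, Mamdc2 and Arhgap6, which rose, and Slfn4, Oas3, Usp35 and Lrp8, which fell. The calls between the ages did not hold in all settings: edgeR called 0 genes with nuclei classed by marker scores (986 at an unadjusted p under 0.05) and 0 without SAT 24 months replicate 2 (770), and 2 with looser filters. The calls between the depots did not hold in all settings either, with 0 genes called by edgeR without SAT 24 months replicate 2 (484 at an unadjusted p under 0.05), 1 (Cd5l) with only the 4 libraries compared and 3 with looser filters, where Cd5l was not called. Without SAT 24 months replicate 1 Prg4 was not called, and in DESeq2 Saa3 was not. The log2 fold change of Timd4 was -1.84 ± 0.57 (approximate SE) from 2 to 24 months in SAT and -1.40 ± 0.59 from SAT to VAT. Here and below, that SE is the absolute log2 fold change divided by the square root of the quasi-likelihood F. Marco had log2 fold changes of -2.39 ± 1.35 and 1.28 ± 1.36 for the same contrasts, and neither Marco nor Timd4 was called. The Marco value between depots turned to -0.06 without SAT 24 months replicate 2 and to -3.32 without VAT 24 months replicate 1.

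The genes were also summed over all nuclei of a library, where macrophages are a minority. Saa3 was at 1.22 and 0.393 CPM in young SAT, 0.380 and 1.13 CPM in old SAT, and 55.5 and 18.3 CPM in VAT. Its log2 fold change between the depots was 5.59 ± 1.05. Cd5l was at 4.47 and 9.64, 0.95 and 0, and 7.09 and 8.33 CPM in young SAT, old SAT and VAT. Prg4 was at 3.54 to 3.96 CPM in young SAT, at 1.71 and 3.83 CPM in old SAT and at 23.5 and 7.35 CPM in VAT. Timd4 was at 51.6 and 45.5, 15.6 and 7.67, and 6.25 and 2.84 CPM in the 3 groups. In such sums fewer macrophages and less RNA per macrophage cannot be told apart. Over all 21729 genes tested, 0 genes (0%) were called by edgeR between the ages, where 1794 had an unadjusted p under 0.05 and DESeq2 called 292. Between the depots, 3 genes (0.0138%) were called, and none of the 5 was among them.

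When the macrophage nuclei were clustered again, with the 5 genes left out of the genes used for clustering, 9 sub-clusters were found. Sub-cluster 7 met the list of large cavity macrophage genes: all 14 listed genes were over 2-fold higher than in the other macrophages. It held 26 nuclei, namely 2 and 3 in young SAT, 0 and 3 in old SAT, and 13 and 5 in VAT. Those are 6.19% (exact 95% interval 3.34 to 10.4) and 3.07% (1.00 to 7.01) of the macrophages in VAT and 0% to 1.35% in SAT. The intervals cover counting error only. The list was met by counts pooled over the 26 nuclei, and whether the SAT nuclei alone met it was not tested.

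The leading genes of the 26 nuclei were Saa3, Prg4, Alox15, Slpi, Thbs1, Ltbp1, Tgfb2, Padi4, Marco and Itga6. Alox15, a lipoxygenase that marks large peritoneal macrophages, gave 123 UMIs in the 26 nuclei and 5 in all other macrophages. Padi4, which converts arginine to citrulline in proteins, gave 45 and 44 UMIs, and Selp, the adhesion molecule P-selectin, gave 22 and 9. Gata6 itself was sparse, at 3 UMIs in the 26 nuclei (66.7 CPM) and 12 in the others (6.68 CPM). None of the 8 small cavity or monocyte-derived genes was over 2-fold higher: Ccr2 was at 245 CPM in the 26 nuclei against 277 CPM, and H2-Aa at 711 CPM against 2093 CPM.

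Nearly all macrophage Saa3 and Prg4 lay in these 26 nuclei. They held 658 of the 671 Saa3 UMIs of macrophages (98.1%) and 196 of the 199 Prg4 UMIs (98.5%). They also held 29.9% of the Cd5l UMIs, 27.7% of the Marco UMIs and 2.78% of the Timd4 UMIs. In VAT replicate 1, all 13 nuclei had Saa3, with a median of 39 UMIs and a range of 1 to 142. In VAT replicate 2, 4 of 5 nuclei had it, with a median of 13 and a highest value of 55. Saa3 made up a median of 1.88% of all UMIs of a nucleus in the first VAT library and 0.677% in the second.

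In VAT, a nucleus of sub-cluster 7 often carried several of the 5 genes. The median was 4 of the 5 genes in each VAT library, with 3 to 5 in replicate 1 and 0 to 4 in replicate 2. UMIs of all 5 genes were found in 5 of the 18 VAT nuclei, which were all in replicate 1. Of the 17 VAT macrophages with Prg4, 16 also had Saa3, and of the 13 with Marco, 12 also had Saa3. Marco in these nuclei differed between the VAT libraries, with 138 UMIs in 11 of 13 nuclei in replicate 1 and 1 UMI in 1 of 5 nuclei in replicate 2. The 8 SAT nuclei placed in the sub-cluster held 1 Cd5l UMI and none of the other 4 genes. Their median depths were 1201, 1100 and 1507 UMIs in the libraries that held them, against 1736 and 1920 in VAT.

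**Figure D2:**
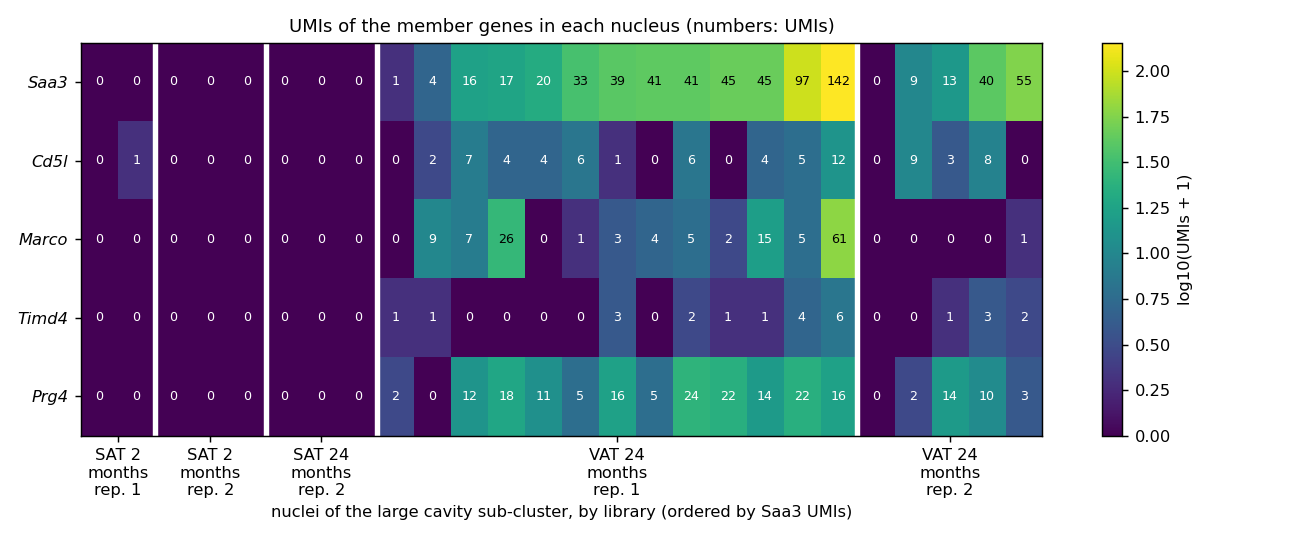
UMIs of the 5 genes in each of the 26 nuclei of the large cavity sub-cluster, with nuclei as columns grouped by library and ordered by Saa3 within a library. Colour is log10(UMIs + 1) and the printed numbers are UMIs. Of the 18 VAT nuclei, 17 carry Saa3 and 16 carry Prg4, and the 8 SAT nuclei carry 1 Cd5l UMI in all.

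Without sub-cluster 7, the VAT macrophages held 7 and 6 Saa3 UMIs (21.9 and 23.8 CPM), 0 and 1 Prg4 UMIs, and 0 and 1 Marco UMIs. Cd5l was then at 18 and 47 UMIs, or 56.4 and 186 CPM, and Timd4 at 25 and 13 UMIs. Most of the visceral Cd5l UMIs of replicate 2 thus lay outside the sub-cluster. Of the 26 nuclei, 2 were among the 5% of nuclei with the highest doublet score in their library, 1 in old SAT and 1 in VAT. Without that 5% of all nuclei, Saa3 in VAT macrophages was at 1685 and 555 CPM.

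Marco had its main seat in young SAT in another sub-cluster. Sub-cluster 6, which met no list and is named here by its leading genes Marco and Cd209b, held 30 nuclei, with 12 and 7 in young SAT, 2 and 2 in old SAT, and 2 and 5 in VAT. Cd209b encodes a lectin of marginal zone and lymph node macrophages. The sub-cluster held 344 of the 501 Marco UMIs of macrophages (68.7%), 28.6% of the Timd4 UMIs and 15.4% of the Cd5l UMIs, and 0 UMIs of Saa3 and Prg4. By library its Marco UMIs were 213 and 113 in young SAT, 18 and 0 in old SAT, and 0 and 0 in VAT. Of the 14 large cavity genes, 1 (Cxcl13) was over 2-fold higher in it, with Alox15 and Padi4 at 0 UMIs. In young SAT, 8 and 6 macrophages had both Marco and Cd5l.

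Timd4 was spread more widely. Sub-cluster 0, of 226 nuclei led by Ttn, St6galnac3, Colq and Trpm2, held 52.3% of the Timd4 UMIs of macrophages. It made up 32.9% and 44.5% of macrophages in young SAT, 21.7% and 6.31% in old SAT, and 3.81% and 23.9% in VAT. Sub-cluster 2, led by the resident macrophage genes Lyve1, Cd209f, Fcna and Folr2, held 12.5% of the Timd4 UMIs. Cd5l had a further seat in sub-cluster 4, the nuclei that met the list of lipid-associated macrophages (Spp1, Gpnmb, Atp6v0d2, Mmp12), with 28.6% of its UMIs. There 37 of the Cd5l UMIs came from 2 nuclei of young SAT replicate 2 and 28 from 5 nuclei of VAT replicate 2.

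Outside macrophages, Marco was found in a lymphatic type of endothelium. Endothelial cluster 26, with the lymphatic genes Mmrn1 and Flt4, held 59 Marco UMIs in 8 of 24 nuclei of young SAT replicate 1 and 30 UMIs in 4 of 17 nuclei of replicate 2. That is 1347 and 1086 CPM, against 234 CPM in old SAT replicate 1 and 0 UMIs in the 42, 25 and 109 nuclei of the other libraries at 24 months. The other endothelial cluster, with the blood vessel gene Flt1, held 1 Marco UMI in all libraries. A stromal cluster with the chemokine genes Ccl21a, Cxcl13 and Ccl19 and the complement receptor gene Cr2, all known from lymph nodes, was also most frequent in young SAT. Its share of nuclei was 1.68% and 2.13% in young SAT, 1.61% and 0.637% in old SAT, and 0.474% and 0.927% in VAT. The summed level of the 4 genes over all nuclei was 417 and 432 CPM, 192 and 55.7 CPM, and 58.8 and 140 CPM, with 4 of 4 detected in each library. Their part in the levels of Marco, Timd4 and Cd5l was not tested.

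**Figure D3:**
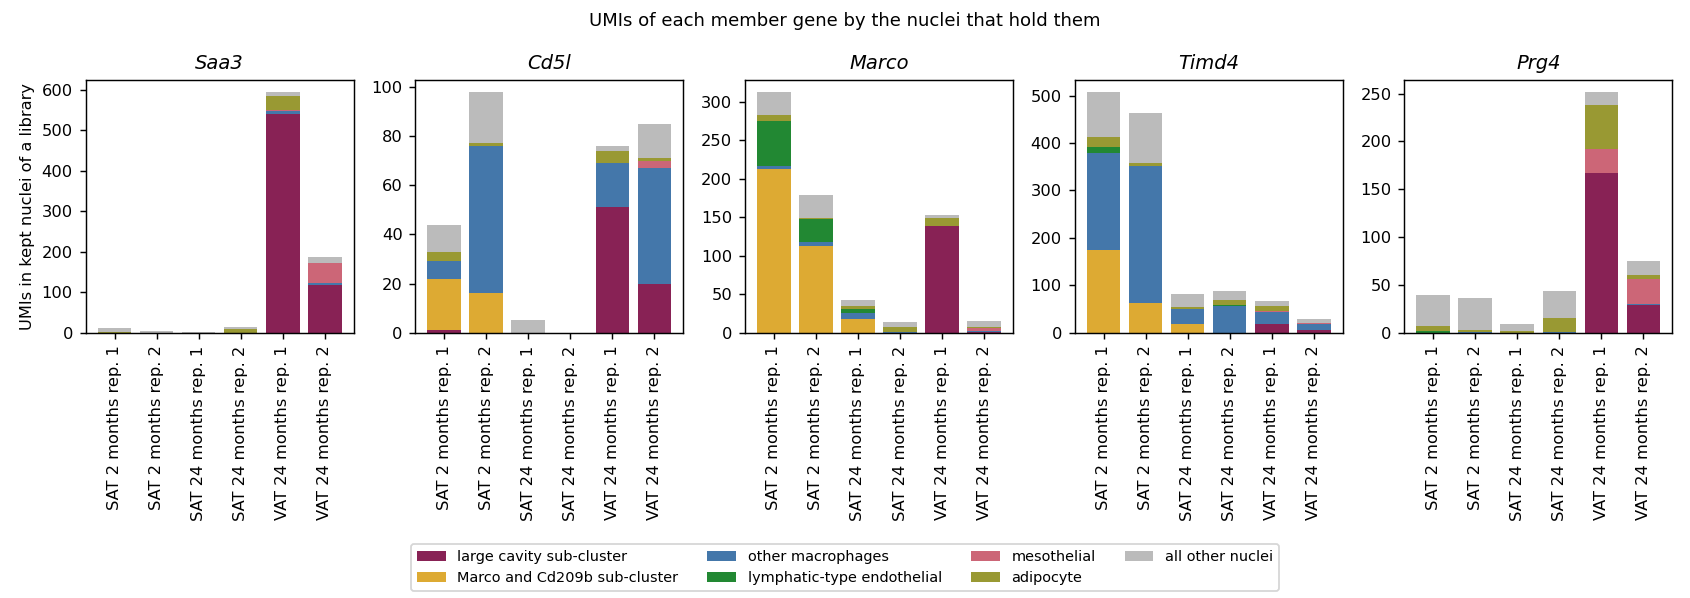
UMIs of each gene in the kept nuclei of each library, stacked by the nuclei that hold them. The large cavity sub-cluster (purple) holds 90.9% and 62.6% of the Saa3 UMIs and 66.3% and 38.7% of the Prg4 UMIs in the VAT libraries. Marco in SAT at 2 months lies mostly in the Marco and Cd209b sub-cluster (yellow) and lymphatic-type endothelium (green), and other macrophages (blue) are the largest source of Timd4, with 37.3% to 63.6% of its UMIs in a library.

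Visceral Saa3 and Prg4 were also met at low level outside macrophages. VAT replicate 1 held 34 Saa3 UMIs in 34 adipocyte nuclei, never more than 1 in a nucleus, and 46 Prg4 UMIs in 40 adipocyte nuclei. The ratio of Saa3 to Prg4 UMIs was 0.739 in these adipocytes and 3.24 in the large cavity nuclei of the same library. Fibro-adipogenic progenitor nuclei of that library held 6 Saa3 and 2 Prg4 UMIs, and the nuclei of that library outside macrophages, adipocytes, mesothelium and these progenitors held 5 and 12. Mesothelial nuclei held 2 Saa3 and 25 Prg4 UMIs in VAT replicate 1, a ratio of 0.08, and 49 Saa3 and 26 Prg4 UMIs in replicate 2, a ratio of 1.88. The Saa3 UMIs of replicate 2 came from 7 mesothelial nuclei, of which 3 held 19, 17 and 6. Prg4 in mesothelial nuclei was at 56.5 CPM in VAT replicate 1 and 6.19 CPM in replicate 2. In SAT, Prg4 was met outside macrophages too, with 23 and 19 UMIs in T cells of young SAT and 18 in endothelial nuclei of old SAT replicate 2.

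Over libraries with at least 20 nuclei of a class, macrophages had the highest mean for all 5 genes, for Saa3 and Prg4 through VAT alone. Within VAT, Saa3 in macrophages was followed by dendritic nuclei at 19.0 ± 21.6 CPM from 2 UMIs and fibro-adipogenic progenitor nuclei at 10.7 ± 6.28 CPM. The progenitor value of replicate 2 came from 4 UMIs in 1 nucleus. Next were unnamed immune nuclei at 8.51 ± 12.03 CPM from 2 UMIs and mesothelial nuclei at 8.09 ± 5.05 CPM. The classes after macrophages did not differ beyond their spread. For Prg4 in VAT, macrophages at 484 and 115 CPM lay above mesothelial nuclei at 56.5 and 6.19 CPM. In SAT, macrophages held 0 Saa3 UMIs and 1 Prg4 UMI at each age, too few to place them in an order of classes. For Marco over all libraries the second class was endothelial nuclei, at 166 ± 251 CPM against 281 ± 281 CPM, again within the spread. For Cd5l the second class was B cells, at 4.10 ± 2.49 CPM against 123 ± 107 CPM, and for Timd4 dendritic cells, at 38.7 ± 81.6 CPM against 491 ± 498 CPM. The dendritic value of Timd4 rested on 6 UMIs in 21 nuclei of VAT replicate 1. Nuclei of the remaining classes, pooled, came next for Timd4 at 28.6 ± 28.4 CPM, within that spread. They were at 57.0 and 61.9 CPM in young SAT, 41.7 and 10.2 CPM in old SAT, and 0 and 0.610 CPM in VAT. The share of all UMIs of a gene that lay in macrophages differed between libraries. For Timd4 it was 61.0% to 76.0%. For Marco it was 61.9% to 90.2% in 4 libraries, but 7.14% in SAT 24 months replicate 2 and 13.3% in VAT replicate 2. For Cd5l it was 65.9% to 90.8% in young SAT and VAT, while in old SAT macrophages held 0 of 5 UMIs in replicate 1 and replicate 2 held no Cd5l UMI. It was 92.1% and 65.8% in VAT for Saa3 and 66.3% and 40% for Prg4, against 0% and at most 2.78% in SAT.

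**Figure D4:**
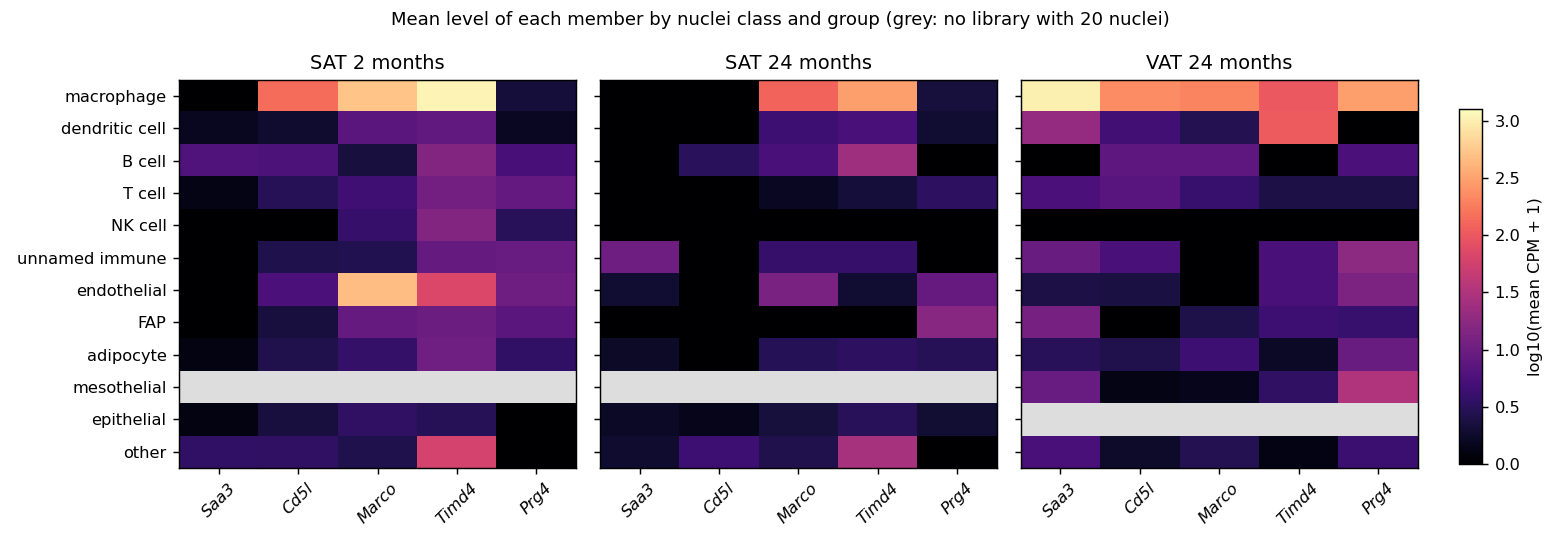
Mean level of the 5 genes by class of nuclei (rows) in the 3 groups (panels), as log10(mean CPM + 1) over libraries with at least 20 nuclei, with grey where no library had them. Macrophages are the brightest row for Saa3 and Prg4 in VAT only, and endothelial nuclei are bright for Marco in SAT at 2 months. Mesothelial nuclei have the second mean for Prg4 in VAT through replicate 1 (56.5 CPM). In replicate 2 they are at 6.19 CPM, below adipocytes at 11.3 CPM.

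Saa1, Saa2 and Saa4, the relatives of Saa3, were not detected in macrophages of any library, and over all nuclei they gave at most 2 UMIs in a library. By the pattern over 62 sums of library and class (Pearson r of log2(CPM + 10), 23266 genes), the genes most like Saa3 were the coagulation gene F7 (r = 0.88), Serpinb2 (0.86), F10 (0.84), Clec4d (0.79) and Prg4 (0.75). Those most like Prg4 were F7 (0.80), Saa3, Serpinb2, G530011O06Rik and Clec4d. Marco was most like Cd209b (0.70), Timd4, Lyve1, Slfn4 and Bpifb2, and Timd4 was most like Clec4n (0.85), Cd209b, Ccl8, Gm13710 and Sdc3. Cd5l was most like Naip1 (0.86), Slfn4, Gm13391, F7 and Bach2os. The sums of a library share its depth, and those of a class share its nuclei, so the 62 points are not independent. Saa3 was at 1590 and 472 CPM in the 2 VAT macrophage sums and at most at 34.2 CPM in any other. Its r values thus largely restate which genes were high in those 2 sums. With 1 CPM added in place of 10, the r of Saa3 with Prg4 fell to 0.45 and that of Saa3 with F7 to 0.58, and Saa3 and Prg4 were no longer among each other's 5 most like genes. F7 gave 36 and 13 UMIs in VAT macrophages and 0 to 3 in each SAT library, and F10 gave 42 and 20 against 0 to 6.

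Lists of related genes were read from the same macrophage fit. In that fit 0.106% of all genes tested were called between the ages and 0.0664% between the depots. A count of 0 called in a list is near these shares, and nothing is read from it. Of the 14 large cavity macrophage genes, 6 passed the filter on low counts, of which Alox15, Padi4 and Ltbp1 passed only with the VAT libraries, where they were high. A call of these between the depots is thus tied to the filter, and nothing is read from the number called or from a median. The other 8 genes, among them Gata6, Selp and Vsig4, gave 0 to 8 UMIs in each SAT library, 8 to 33 in VAT replicate 1 and 1 to 8 in replicate 2. Alox15 and Padi4 were called, beside 0.0664% of all genes tested. Alox15 gave 0 UMIs in young SAT, 0 and 2 in old SAT, and 94 and 32 in VAT, so that VAT lay above all SAT libraries. Padi4 gave 4 and 12, 1 and 1, and 37 and 34 UMIs. Old SAT held 2 UMIs of each gene, and the pooled ratio of VAT to old SAT was 54.2 for Alox15 (95% counting interval 14.7 to 452) and 30.5 for Padi4 (8.15 to 257). Both calls were lost when either old SAT library was left out. Rarb, with a log2 fold change of 1.53 ± 0.67, and Fn1, with 0.35 ± 0.51, were not called, and neither was Ltbp1. Between the ages 0 of the 6 were called by edgeR. The list was chosen with results of these libraries known, so its direction is not independent evidence.

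Over all genes tested in macrophages, the median log2 fold change was -0.01 between the ages and 0.02 between the depots. Of the 8 small cavity or monocyte-derived genes, 7 were tested and 0 called, with medians of 1.38 between the ages and -1.10 between the depots. Cd74, the invariant chain of MHC class II, was at 2413 and 1720, 2515 and 8532, and 2349 and 2469 CPM, so that SAT 24 months replicate 2 stood alone. Retnla, H2-Aa and H2-Eb1 had depot values of -1.48 ± 0.80, -1.10 ± 0.49 and -1.39 ± 0.53. All 12 resident adipose macrophage genes were tested and 0 called, with medians of 0.65 and -0.52. Mrc1, the mannose receptor, was at 1442 and 918, 1975 and 2942, and 2274 and 886 CPM, and F13a1, Stab1 and Selenop had depot values of -0.50 ± 0.62, 0.12 ± 0.44 and -0.79 ± 0.64.

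Of the 10 lipid-associated macrophage genes, 9 were tested and 0 called, with medians of 0.56 and 1.21, and Atp6v0d2 passed the filter only with VAT. Gpnmb, a lysosomal glycoprotein, was at 438 and 186, 130 and 43.5, and 664 and 1683 CPM, with a depot value of 3.99 ± 0.68 (edgeR adjusted p = 0.0591). Spp1 was at 2322 CPM in the first young library and at 0 to 247 CPM in the others, and Lpl and Lgals3 had depot values of -0.05 ± 0.62 and 1.21 ± 0.40.

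Among the functional relatives, 8 of 13 scavenger receptor genes were tested and 0 called, with medians of -0.34 and -0.05, and Scara5 passed the filter only with VAT. Msr1, a relative of Marco, was level at 128 to 192 CPM in the 6 libraries, while Marco ranged from 2.42 to 758 CPM. Cd36, Scarb2 and Colec12 had depot values of -0.18 ± 0.67, -0.29 ± 0.39 and -0.26 ± 0.44. Of 15 phosphatidylserine receptors and bridging molecules, 10 were tested and 0 called, with medians of 0.35 and -0.00. The receptor gene Mertk was at 399 to 732 CPM and Axl at 110 to 396 CPM over the libraries, while Timd4 ranged from 72.9 to 1326 CPM. Gas6, which bridges these receptors to dying cells, was at 337 to 614 CPM, and Stab1 at 317 to 1122 CPM.

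Of 13 acute-phase genes, 2 were tested and 0 called, with medians of -0.04 and -0.00. Hp, which encodes haptoglobin, gave 10 and 3, 2 and 18, and 22 and 10 UMIs, Tnf gave 13 and 25, 5 and 6, and 6 and 3, and Lbp and Il1b were too sparse to test, at up to 9 and 19 UMIs. Of 7 serum amyloid A receptor genes, 5 were tested and 0 called, with medians of 0.68 and -0.18. Tlr4 and Tlr2, receptors for bacterial products, had depot values of -1.28 ± 0.45 and -0.73 ± 0.55, and P2rx7 one of 0.36 ± 0.42. Of 12 regulators of the 5 genes, 11 were tested and 0 called, with medians of -0.30 and -0.27. Maf, a transcription factor of resident macrophages, had a depot value of -0.44 ± 0.47, and Cebpb and Nfkb1 values of 0.76 ± 0.44 and -0.07 ± 0.38. Of 12 lubricin and mesothelial surface genes, only Cd44 passed the filter in macrophages, at -0.47 ± 0.39 between the depots. In macrophages of VAT, the mesothelial genes Upk1b, Upk3b and Wt1 gave 4 and 34, 5 and 13, and 4 and 11 UMIs, against 0 to 3 in each SAT library, and their part in the Prg4 level was not tested.

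In all nuclei, where 12 of these 12 surface genes were tested, the median depot value was 3.12 against 0.03 over all genes, and 0 were called. Wt1, a transcription factor of mesothelium, gave 559 and 5185 UMIs in VAT and 5 to 24 in the SAT libraries, and Upk1b gave 487 and 6318 against 7 to 16. Prg4 did not follow that order, since VAT replicate 1 held 252 Prg4 UMIs and replicate 2 held 75. In all nuclei 0 genes of the other 9 lists were called in either contrast, beside 0% and 0.0138% of all genes tested. The study's methods give a pair of mice for each age, but the labels do not tie a library to a mouse, so SAT and VAT at 24 months may share mice, and the p-values measure the spread between these libraries.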

How the data were processed

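Single-nucleus RNA was measured in 6 libraries. Per the study's methods, the authors captured nuclei on a Singleron chip and used Celescope with GRCm39 for alignment and counting (version and annotation not given in the sources used here), and they deposited raw UMI counts per gene and barcode. Total UMIs per library ranged from 8061862 to 16226690, and intervals and floors (3 UMIs) cover counting error only.

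As in the study, a nucleus needed more than 500 genes, more than 1000 UMIs and a mitochondrial share below 15%. From 1000 variable genes, without the 5 genes described, 30 principal components were corrected by library and clustered (Leiden, 20 neighbours, resolution 2, macrophages again at 1, seed 1), giving 42 clusters. A list named a cluster when 3 or more of its markers were over 2-fold higher and its mean log2 fold (10 CPM added) was highest and at least 0.5. Further conditions were set after the data were seen: naming per cluster and library with 10 or more nuclei, most of the list raised, agreement of the 10 leading genes, and margins of 0.3 (0.5 among immune lists) to the next list. The names are candidate identities (macrophage-like and so on). Scrublet marked 0.0519% to 0.562% of nuclei and no macrophage. Its threshold was not examined and its calls were not relied on. Doublets were not removed in the main analysis and may remain.

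Counts were summed per library over macrophages or all nuclei and fitted with edgeR 4.0.16 (TMM, filterByExpr, quasi-likelihood test, all 6 libraries in 1 fit, adjusted p under 0.05). On simulated counts of the macrophage age comparison (7526 genes), 39% of 4-fold and 73% of 8-fold changes were recovered with 7 false calls. For all nuclei (21729 genes) 0% were recovered at either size. These used the estimated spread; at a low simulated dispersion of 0.05, 69% and 89% were recovered in macrophages (12 false calls) and 79% and 91% in all nuclei (7 false calls). DESeq2 1.42.0, other scalings, filters, class rules, a replicate block and leaving out libraries were tried. Python 3.11.15, scanpy 1.11.5, scipy 1.17.1, scikit-learn 1.9.0, leidenalg 0.10.2, igraph 0.11.9, matplotlib 3.10.9, R 4.3.3 and limma 3.58.1 were used.

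The members and all lists were chosen with earlier results of these data known. Named are the 5 genes, of each list the genes called and up to 4 with the highest mean CPM, and per member the 5 genes of most like pattern among those with 30 or more UMIs. The values of 1 gene that the rule named are not reported here. Genes of the leading sub-clusters and of cluster markers were named after their values were seen. The study's text says that each age group had 2 mice, so SAT and VAT libraries at 24 months may share mice, and their pairing is not stated.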

Additional observations from a re-analysis of the deposited data

How the results depend on the processing

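Numbers of genes called moved with the processing, and the cause was not tested unless stated. For the macrophage comparison of ages (8 genes called), the count was 232 with no low-count filter, 52 with the DESeq2 Wald test, 205 with only the 4 libraries compared, 2 with looser filters, 0 with marker scores, 3 without the large cavity sub-cluster (chosen after seeing the data) and 0 to 344 when 1 library was left out. For the macrophage comparison of depots (5 called), it was 35 with no filter, 1 with only the 4 libraries, 3 with looser filters, 0 without the large cavity sub-cluster and 0 to 70 when 1 library was left out. For all nuclei, the count between ages (0) was 953 with no filter, 292 with DESeq2 and 0 to 50 with 1 library left out. Between depots (3) it was 1034 with no filter, 522 with DESeq2, 0 with only the 4 libraries, 24 with looser filters and 0 to 952 with 1 library left out.

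With the replicate number as a block, 5 genes were called between ages and 4 between depots in macrophages, and 0 in all nuclei in both comparisons. Whether the numbers pair the samples is not stated. The correlations of same-numbered deviations were -0.134, 0.038 and -0.111 in macrophages and -0.266, 0.182 and -0.476 in all nuclei. With 2 libraries in a group, these rest on the difference between replicates and cannot show whether mice were shared. With the sub-cluster led by T cell genes left out (chosen after seeing the data), 9 genes were called between ages and 5 between depots in macrophages. Where 1 library was left from a group, its spread was taken from the other groups.

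The difference of mean CPM between VAT and old SAT macrophages fell without the large cavity sub-cluster, by the construction of that alternative, to 22.9 for Saa3 (1031 with it), 121 for Cd5l (229) and 0.758 for Prg4 (298.5). With looser filters, where macrophages were also classed by marker scores, it was 126 for Cd5l, and the Saa3 difference between ages was 2.97 (0). Without thinning, the difference in shares between ages was -7.99 points for Cd5l (-7.11 thinned) and -21.7 for Timd4 (-18.2). With log2(CPM + 1), 3 of the 5 most like genes were shared for Saa3, Marco and Timd4 and 1 for Prg4. Leaving out 1 library gave differences between depots of 472 to 1590 CPM for Saa3, 200.1 to 257 for Cd5l, -115 to 278 for Marco, -365 to -35.2 for Timd4 and 114 to 483 for Prg4. Between ages they were -177 to -102 for Cd5l, -635 to -153 for Marco and -1025 to -520 for Timd4.

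Directions turned for log2 fold changes that were not called. Marco between depots in macrophages (1.28) was -5.34 without the large cavity sub-cluster and ranged from -3.32 (without VAT replicate 1) to 6.36 with 1 library left out, with -0.06 without SAT 24 months replicate 2. In all nuclei Marco (1.11) was -1.54 without that sub-cluster and -1.63 to 2.76 with 1 library left out. Between ages in all nuclei, Saa3 (0.27) ranged from -1.02 to 1.28, with -0.32 without SAT 2 months replicate 2, and Prg4 (-0.15) from -1.09 to 0.38. Timd4 between ages in macrophages stayed between -2.91 and -1.14. The mesothelial comparisons could not be made, since SAT held no mesothelial nuclei, and 60 macrophages in SAT 24 months replicate 1 limit what 0 UMIs can show there.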
